A study of Mus musculus with 8 samples.

Results

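RNA-seq counts were examined for 10 genes of the adipocyte lineage, Pparg, Cebpa, Cebpb, Zfp423, Adipoq, Apoe, Lpl, Cd36, Fabp4 and Plin1, out of 49315 genes in the deposited tables. The genes were listed by name and matched by symbol, and all 10 were found. The 8 libraries came from wild type mouse bone marrow without any treatment, labelled as C57BL/6J (C57BL/6JJcl in the methods) and 6 weeks of age. Stromal populations defined in a single-cell analysis (clusters 1 to 7) were isolated by surface antigens among cells negative for CD31, CD45 and Ter119, and sequenced as 1 library each beside 1 library of input bone marrow cells.

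As the gating plots show, cluster 1 was taken as CD24-, Sca-1+ and CD39+, cluster 2 as Ly-6C-, CD39- and CD24-, and cluster 3 as Ly-6C+, CD24+ and negative for CD39 and CD54. Cluster 4 was Ly-6C-, CD54+ and CD24-. Cluster 5 was CD54+, CD121b- and negative for CD24 and Ly-6C, cluster 6 was CD24+, Sca-1- and CD39-, and cluster 7 was CD54-, Sca-1+ and negative for CD24 and Ly-6C. The transcript of Cd24a was lowest in cluster 3 and second highest in cluster 2, against their gates, and the names of the clusters are used here as labels only. Each population is a gate on a pool of marrow cells and not a single cell type, and the number of mice behind a library is not given in the sources used here. The sorted libraries held from 12833648 (cluster 5) to 33238133 (cluster 7) reads counted on genes, and the input held 20162876. With 1 library per population there is no replicate error, no test between populations was made, and the 95% intervals below cover counting error only. In such bulk libraries, fewer cells of a type and less RNA per cell cannot be told apart.

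The labelled cell type was checked by its markers. Of 9 stromal markers, all were above 1 RPKM in every library, the input included, except Kitl in cluster 6, at 0.980. This level thus does not set the sorted libraries apart from the input. The 9 markers summed to 10397 RPKM in the input and to less in clusters 2 and 5, at 7268 and 9589. The sum in the other sorted libraries lay between 10895 and 24700. Col1a1, which reached the highest level of the 9 in any sorted library, ranged from 1962 RPKM in cluster 4 to 15952 RPKM in cluster 6. It had 691 in the input. Dcn was instead highest in the input, at 8008 RPKM against at most 6424 in the sorted libraries. RPKM is the count per kilobase of exon, scaled to a common total of reads counted on genes. The sorted libraries also held transcripts of the cells that the gates remove. S100a9, a neutrophil granule gene, lay between 4834 and 11033 RPKM in them, and Hba-a1, an alpha globin gene, between 593 and 30376 RPKM, while Ptprc, which encodes CD45, lay between 1.69 and 9.26 RPKM. In the input, S100a9 and Ptprc were higher, at 14745 and 13.5 RPKM. Hba-a1 was lower there than in every sorted library, at 267 RPKM. The part of such cells in the values below was not tested, except where a measurement is given.

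Adipocytes arise from mesenchymal progenitors through a cascade of transcription factors. C/EBPβ (Cebpb), with C/EBPδ, acts early and leads to PPARγ (Pparg) and C/EBPα (Cebpa), which then sustain each other and switch on genes of lipid uptake and storage, while the zinc finger protein ZFP423 (Zfp423) marks preadipocytes. In the marrow, stromal cells that produce CXCL12 and carry the leptin receptor are known to include adipocyte precursors.

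Among the sorted populations the 10 genes fell into 3 patterns. Adipoq, Apoe and Lpl were far higher in cluster 4 than in most other populations, at 2.77, 2.60 and 2.42 on the log2 scale above the median of the other 6, and Cebpb lay above that median by 1.09. Fabp4 and Cd36, which encode fatty acid carriers, lay the other way, at -1.06 and -1.34. Pparg, Cebpa and Zfp423 stayed between 0.24 and 0.53, and Plin1, the lipid droplet coat of mature adipocytes, was barely detected. These values are log2 ratios of RPKM + 1.

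**Figure D1:**
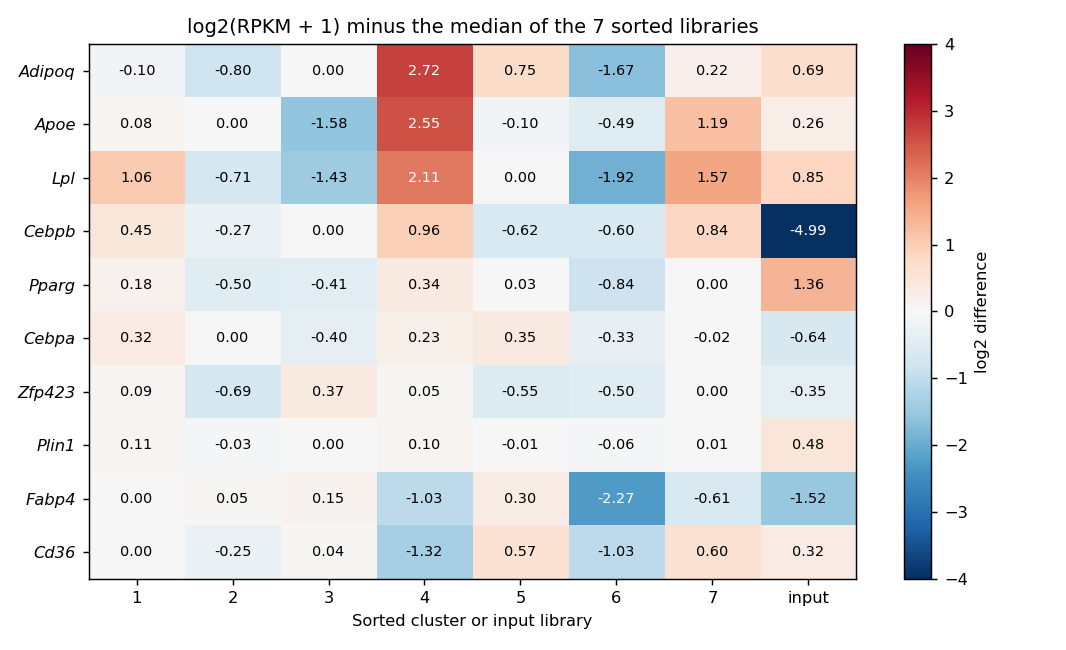
Heat map of the 10 adipocyte lineage genes (rows) in the 7 sorted libraries and the input (columns). Each cell gives log2(RPKM + 1) minus the median of the 7 sorted libraries, red above and blue below it. The column of cluster 4 is red for Adipoq, Apoe and Lpl (2.72, 2.55 and 2.11) and blue for Fabp4 and Cd36 (-1.03 and -1.32), and cluster 6 is lowest for Lpl and Fabp4.

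With the criterion of RPKM above 2 in at least 1 sorted library and highest over lowest RPKM + 1 above 2-fold, 8 of the 10 genes passed the level and 7 of those 8 the fold. Among all 12360 genes that passed the level, 70.6% passed the fold, so the count of 7 does not by itself set these genes apart. Just inside the fold was Zfp423, at 2.08, and just outside was Cebpa, at 1.68. Zfp423 did not pass without cluster 2 or with totals that leave out Rn18s-rs5, Lars2 and mmu-mir-689-2, which held 34.8% of the counts of cluster 5, and Cebpa passed with those totals, with TMM or DESeq2 factors, with TPM and with a pseudocount of 0.1. Pparg and Plin1 did not reach RPKM 2 in any sorted library, although Pparg came close, at 1.82 in cluster 4. The median highest-to-lowest difference of the 8 genes was 2.24 on the log2 scale of RPKM + 1, against 1.26 for all genes that passed the level.

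Cluster 4 held the highest level of 4 of these 8 genes (Adipoq, Cebpb, Lpl and Apoe), and also of Pparg. It was the highest library for 8.95% of all genes that passed the level. Adipoq and Apoe were more than 2-fold above the next library in RPKM + 1, at ratios of 3.94 and 2.57, whereas 5.4% of all genes were more than 2-fold above the next in some library and 0.299% in cluster 4. Of the 8 genes, 4 lay more than 2-fold above and 2 more than 2-fold below the median of the other populations in cluster 4, against 4.47% and 1.47% of all genes. Of these, Cebpb did not pass without the 3 loci, without cluster 2 or without cluster 5, and Fabp4 did not pass with TMM or DESeq2 factors or with TPM. At the low end, cluster 6 was lowest for Adipoq, Lpl and Fabp4 of the 8, and for Pparg and Plin1 as well, and it was lowest for 26.1% of all genes.

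The sequence before the transcription start is shown for Adipoq, Apoe and Cebpb, which were highest in cluster 4, and for Cd36, which was lowest there, since PPARγ and the C/EBP factors, whose motifs were sought in it, are themselves among the 10. RefSeq promoters (GRCm38.p6) were at hand for 8 of the 10 genes and not for Lpl and Fabp4. Each line gives 250 bases upstream of a start, 5′ to 3′ on the strand of the gene, and capitals mark a match on either strand to one of 7 motifs. These were the TATA box as TATAAA, the CCAAT box as CCAAT, the GC box as GGGCGG, the nuclear receptor site as AGGTCA, the repeat bound by PPARγ with RXR (AGGTCA in 2 copies with 1 base between, which also counts as the single site), the C/EBP site as TTGCNNAA and the EBF site (TCCC and GGGA with 2 bases between). The windows are chr16:23146286-23146535 on the plus strand for Adipoq, chr7:19699189-19699438 on the minus strand for Apoe, chr2:167688665-167688914 on the plus strand for Cebpb and chr5:17835897-17836146 on the minus strand for Cd36.
Adipoq: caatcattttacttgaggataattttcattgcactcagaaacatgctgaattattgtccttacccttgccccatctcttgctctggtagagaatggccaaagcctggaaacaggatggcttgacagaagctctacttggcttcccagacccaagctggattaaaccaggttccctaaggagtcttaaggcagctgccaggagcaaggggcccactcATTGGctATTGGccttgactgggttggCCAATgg
Apoe: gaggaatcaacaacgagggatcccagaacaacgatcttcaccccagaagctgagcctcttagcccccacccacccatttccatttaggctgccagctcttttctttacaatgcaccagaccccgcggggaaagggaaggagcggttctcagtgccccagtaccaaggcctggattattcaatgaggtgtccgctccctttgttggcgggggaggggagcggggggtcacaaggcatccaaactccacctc
Cebpb: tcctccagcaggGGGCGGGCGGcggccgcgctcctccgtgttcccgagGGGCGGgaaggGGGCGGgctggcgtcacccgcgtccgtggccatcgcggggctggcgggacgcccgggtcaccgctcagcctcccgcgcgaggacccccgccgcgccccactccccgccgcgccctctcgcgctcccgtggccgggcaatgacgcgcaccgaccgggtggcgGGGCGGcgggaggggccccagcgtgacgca
Cd36: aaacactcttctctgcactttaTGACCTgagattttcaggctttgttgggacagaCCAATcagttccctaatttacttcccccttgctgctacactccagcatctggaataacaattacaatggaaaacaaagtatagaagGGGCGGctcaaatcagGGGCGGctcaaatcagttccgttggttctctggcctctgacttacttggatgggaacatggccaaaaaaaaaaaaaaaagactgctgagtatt

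Adipoq held CCAAT at 3 places, the first bases of which lie 34, 27 and 7 bases upstream of the start. Cebpb held 5 GC boxes, of which 2 overlap. The window of Cd36 held 2 GC boxes, 1 CCAAT and 1 AGGTCA, but its start lies 52905 bases inside the 5′ end of the gene in the deposited tables. This window of Apoe held none of the 7 motifs, and a second RefSeq start of Apoe 567 bases downstream had 2 overlapping TATA box matches. Among the windows of the 8 genes, the C/EBP site had 2 matches before the Pparg start at 115422066, 2 in Plin1 and 1 in Zfp423. It had none in the windows shown above. AGGTCA was also matched before starts of Pparg and Zfp423. Neither the PPARγ repeat nor the EBF site was found in the windows of the 8 genes. Of 32851 promoters of this length, 33.8% hold CCAAT, 32.7% GGGCGG, 14.0% AGGTCA, 12.4% TATAAA, 9.56% TTGCNNAA, 0.779% the EBF site and 0.0335% the repeat. A match is a description of the letters only.

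Of the transcription factors, Cebpb was far more abundant than the other 3. Cebpb (ENSMUSG00000056501, chr2:167688915-167690418, a single exon) had 456, 276, 332, 648, 216, 219 and 595 RPKM in clusters 1 to 7. Clusters 4 and 7 were both high and close to each other, with a ratio of 1.09 (95% interval 1.07 to 1.11), and clusters 5 and 6 were both low and did not differ beyond counting error, with a ratio of 1.02 (0.982 to 1.06). The highest exceeded the lowest by 3.01-fold (2.91 to 3.11). Under TMM scaling (edgeR's correction for differing RNA composition), cluster 4 remained highest, at 665, and cluster 2 became the lowest, at 277. With totals without the 3 loci, cluster 5 had 331 against 223 in cluster 6, so the closeness of these libraries depends on the scaling. Of the exon bases of Cebpb, 312 are shared with an antisense gene, Tmem189, which had between 571 and 2504 counts in the sorted libraries against 4161 to 31738 for Cebpb, and 1165 counts in the input against 288 for Cebpb.

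Pparg (ENSMUSG00000000440, chr6:115360951-115490399), the master regulator of the adipocyte programme, was low in every sorted library. Its level was 1.52, 0.574, 0.675, 1.82, 1.27, 0.246 and 1.22 RPKM in clusters 1 to 7, from 23 to 175 counts. Clusters 4, 1, 5 and 7 formed the upper end, and no neighbours in that order differed beyond counting error, the ratio of cluster 4 to cluster 1 being 1.19 (0.935 to 1.53), while cluster 4 exceeded cluster 5 by 1.44-fold (1.04 to 2.02) and cluster 7 by 1.49-fold (1.17 to 1.89). Without the 3 loci the direction against cluster 5 turned, with 1.94 RPKM in cluster 5 and 1.84 in cluster 4. Cluster 4 exceeded cluster 6 by 7.40-fold (4.78 to 12.0).

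Cebpa (ENSMUSG00000034957, chr7:35119293-35121928, a single exon), the partner of Pparg in terminal differentiation, did not pass 2-fold in RPKM + 1. It had 3.35, 2.50, 1.65, 3.11, 3.46, 1.78 and 2.45 RPKM in clusters 1 to 7. The highest library, cluster 5, did not exceed cluster 1 beyond counting error (ratio 1.03, 0.816 to 1.30), and its ratio to cluster 3 was 2.09 (1.61 to 2.73). The closeness of clusters 5 and 1 depends on the scaling, with 4.68 against 3.04 RPKM under TMM and 5.31 against 3.42 without the 3 loci. Cluster 4 was the third in this order, unlike its place for Cebpb and Pparg.

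Zfp423 (ENSMUSG00000045333, chr8:87661810-87959595) was highest in cluster 3. Its values were 4.23, 2.05, 5.35, 4.11, 2.38, 2.49 and 3.93 RPKM in clusters 1 to 7. Clusters 1, 4 and 7 lay together below cluster 3, and clusters 2, 5 and 6 lay lower. Cluster 3 exceeded cluster 1 by 1.26-fold (1.14 to 1.41) and cluster 2 by 2.60-fold (2.28 to 2.99). Thus each of clusters 4, 5 and 3 was the highest library of at least 1 of the 4 factors.

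**Figure D2:**
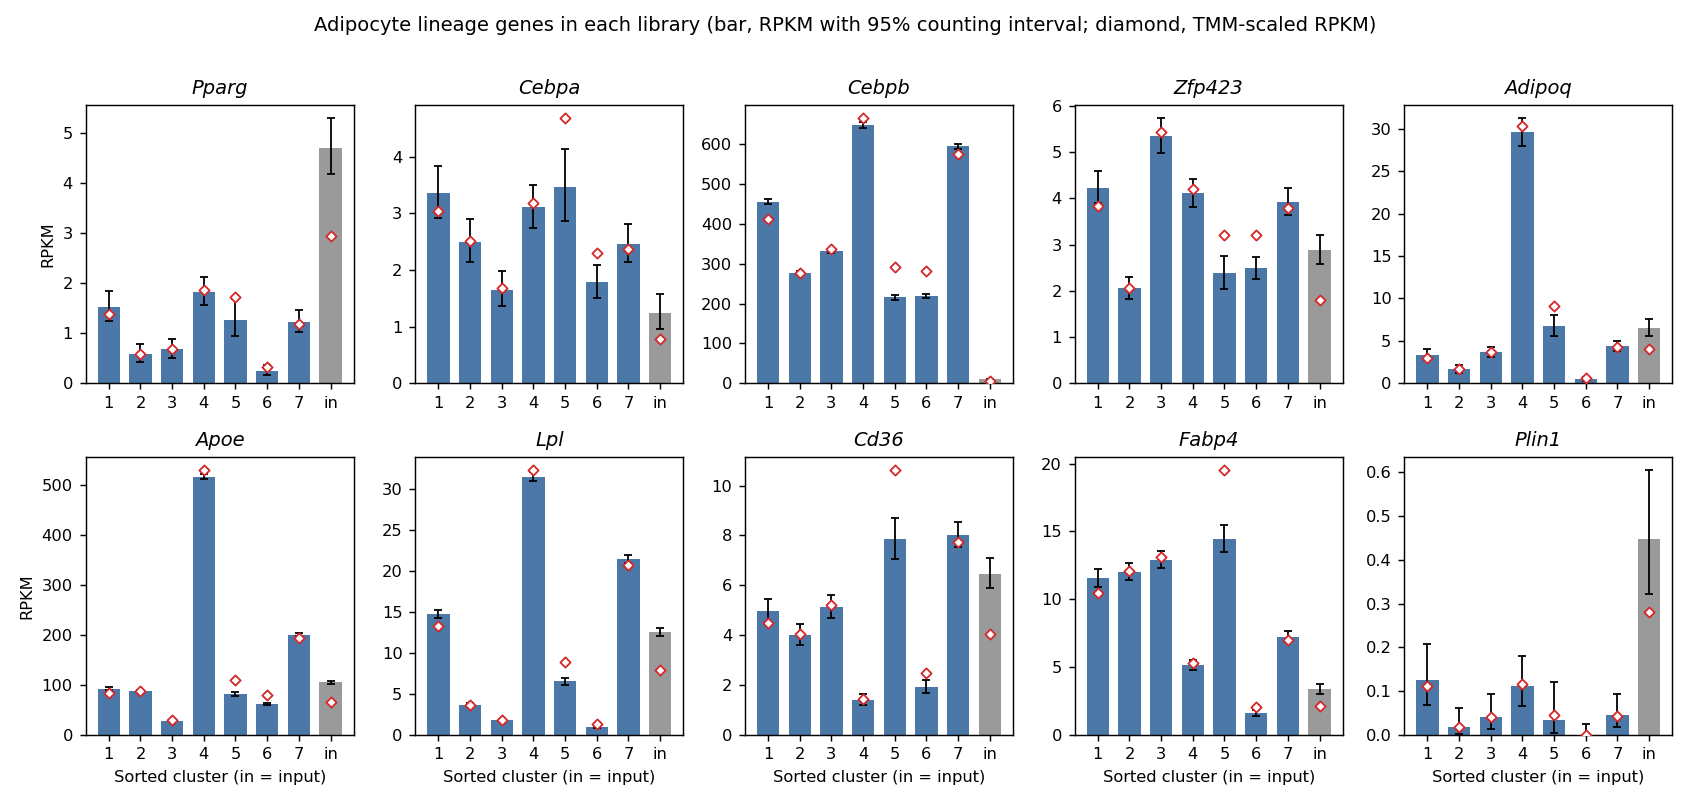
RPKM of each of the 10 genes (y axis, own scale per panel) in the 7 sorted libraries (blue bars) and the input (grey bar, in), with 95% counting intervals; red diamonds are TMM-scaled values. Cluster 4 stands alone for Adipoq and Apoe, clusters 4 and 7 are both high for Cebpb and Lpl, and cluster 4 is lowest for Cd36.

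The secreted products Adipoq and Apoe were the members more than 2-fold above the next library. Adipoq (ENSMUSG00000022878, chr16:23146536-23158028) encodes adiponectin, an adipokine that is also made by marrow stromal cells of the CXCL12-rich type. It had 3.32, 1.66, 3.63, 29.6, 6.77, 0.457 and 4.38 RPKM in clusters 1 to 7. Cluster 4, with 1330 counts, stood apart from all of them, and among clusters 7, 3 and 1 neighbours in the order did not differ beyond counting error. The ratio of cluster 4 to cluster 6, which had 20 counts, was 64.7 (41.7 to 106), the widest of the 9 genes with counts in every library.

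Apoe (ENSMUSG00000002985, chr7:19696109-19699188), which encodes a lipoprotein ligand of the LDL receptor family made by many cells including macrophages, was the second most abundant of the 10 genes. Its values were 92.2, 87.3, 28.5, 516, 81.3, 61.7 and 200.2 RPKM in clusters 1 to 7. Cluster 4 exceeded cluster 7 by 2.58-fold (2.53 to 2.63) and the lowest library, cluster 3, by 18.1-fold (17.2 to 19.0). The 10 macrophage markers summed to 31.3 RPKM in cluster 4 and to 83.5 in cluster 7, with Cd68 the most abundant at 18.3 and 32.4, and across clusters 1, 2, 3, 5 and 6 the sum was 25.4, 19.8, 17.0, 36.4 and 29.9 RPKM. Cluster 3 was thus the lowest for both the sum and Apoe, and cluster 7 was the highest for the sum, and the part of macrophages in Apoe was not tested.

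Of the genes of lipid handling, Lpl followed Apoe. Lpl (ENSMUSG00000015568, chr8:68880491-68907448) encodes lipoprotein lipase, which frees fatty acids from circulating triglyceride. It had 14.7, 3.60, 1.80, 31.5, 6.52, 0.991 and 21.4 RPKM in clusters 1 to 7. Clusters 4, 7 and 1 were high and clusters 2, 3 and 6 low, with each step of the order beyond counting error. Cluster 4 exceeded cluster 7 by 1.47-fold (1.43 to 1.52) and cluster 6 by 31.7-fold (28.4 to 35.5).

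Cd36 and Fabp4 departed from this order. Cd36 (ENSMUSG00000002944, chr5:17781690-17888801) encodes a fatty acid translocase carried by adipocytes, macrophages, platelets and microvascular endothelium. It had 4.97, 4.01, 5.14, 1.39, 7.86, 1.92 and 8.02 RPKM in clusters 1 to 7. Cluster 4 was the lowest, and clusters 7 and 5 were the highest and did not differ beyond counting error (ratio 1.02, 0.904 to 1.16). The ratio of cluster 7 to cluster 4 was 5.75 (4.86 to 6.83), and under TMM scaling cluster 5 rather than cluster 7 was the highest, at 10.6.

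Fabp4 (ENSMUSG00000062515, chr3:10204088-10208576) encodes the adipocyte fatty acid binding protein, which capillary endothelium also makes. It had 11.6, 12.0, 12.9, 5.14, 14.4, 1.60 and 7.24 RPKM in clusters 1 to 7. Clusters 5, 3, 2 and 1 were the highest, and clusters 4 and 6 were the lowest. Cluster 5 stood farther above cluster 3 with TMM scaling, at 19.5 against 13.1, and without the 3 loci, at 22.2 against 13.1. The ratio of cluster 5 to cluster 6 was 9.04 (7.80 to 10.5). The exon length of Fabp4 in the tables, 4489 bases, equals its whole span, introns included, a divisor that is the same in every library.

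Markers of other cells that carry these proteins were measured beside them. The macrophage sum given above for Apoe was highest in clusters 7 and 5, as was Cd36. It was lower in clusters 1, 2, 3 and 6 than in cluster 4, where Cd36 was lowest. With TMM scaling (shifts of 0.37 for cluster 6 and 0.04 for cluster 4 on the log2 scale), the sum in cluster 6 lay above that in cluster 4. Csf1r, a macrophage receptor, had r = 0.054 with Cd36 and -0.514 with Fabp4 across the 7 sorted libraries. Of the other markers, C1qa, C1qb, C1qc, Mrc1, Spic and Marco were highest in clusters 5 and 7. Adgre1, Cd163 and Cd68, like Csf1r, were highest in cluster 7 and next in cluster 6 or 4. The 10 endothelial markers summed to 18.4, 12.8, 15.6, 7.0, 17.9, 5.76 and 13.5 RPKM in clusters 1 to 7, and the sum was thus lowest in clusters 4 and 6, the same libraries that were lowest for Fabp4 and Cd36. Not each marker followed the sum, as Erg was highest in cluster 6, at 1.97 RPKM, and Stab2 was highest of the sorted libraries in cluster 4, at 0.453. Of the defining genes, Cdh5, the endothelial cadherin, lay between 0.210 RPKM in cluster 6 and 2.48 in cluster 5, and none of the 10 markers was at 0 in any library. The largest value of any endothelial marker was that of Tek, at 5.31 RPKM in cluster 1. Fabp4 was more abundant than Cdh5 in every library, by length-scaled level.

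The 6 megakaryocyte markers, led by Pf4, summed to 75.5, 40.5, 102, 21.8, 61.6, 7.49 and 29.0 RPKM in clusters 1 to 7, again least in clusters 6 and 4. Pf4 made up most of this sum in clusters 1, 2, 3, 5 and 7. Pf4 and Ppbp were least in clusters 4 and 6, but the other markers of the list did not follow the sum. Itga2b had 3.59 RPKM in cluster 4 against 2.18 in cluster 2 and 2.31 in cluster 5. Itgb3 had 2.91 in cluster 4 against 2.70 in cluster 2 and 1.64 in cluster 5. Gp9 had 1.92 in cluster 4 against 0 in cluster 2, and Gp1bb was least in cluster 7, at 1.66. The 10 erythroid markers, led by Hba-a1, summed to 68537 RPKM in cluster 5 and to 2261 and 1596 in clusters 4 and 6. Across the 7 sorted libraries the Pearson r of log2(RPKM + 1) was 0.841 between Fabp4 and Cdh5, 0.963 between Fabp4 and Pf4, and 0.760 between Cd36 and Cdh5. These r are over 7 points that share a common scaling by library total, and the part of these other cells in Fabp4 and Cd36 was not tested.

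**Figure D3:**
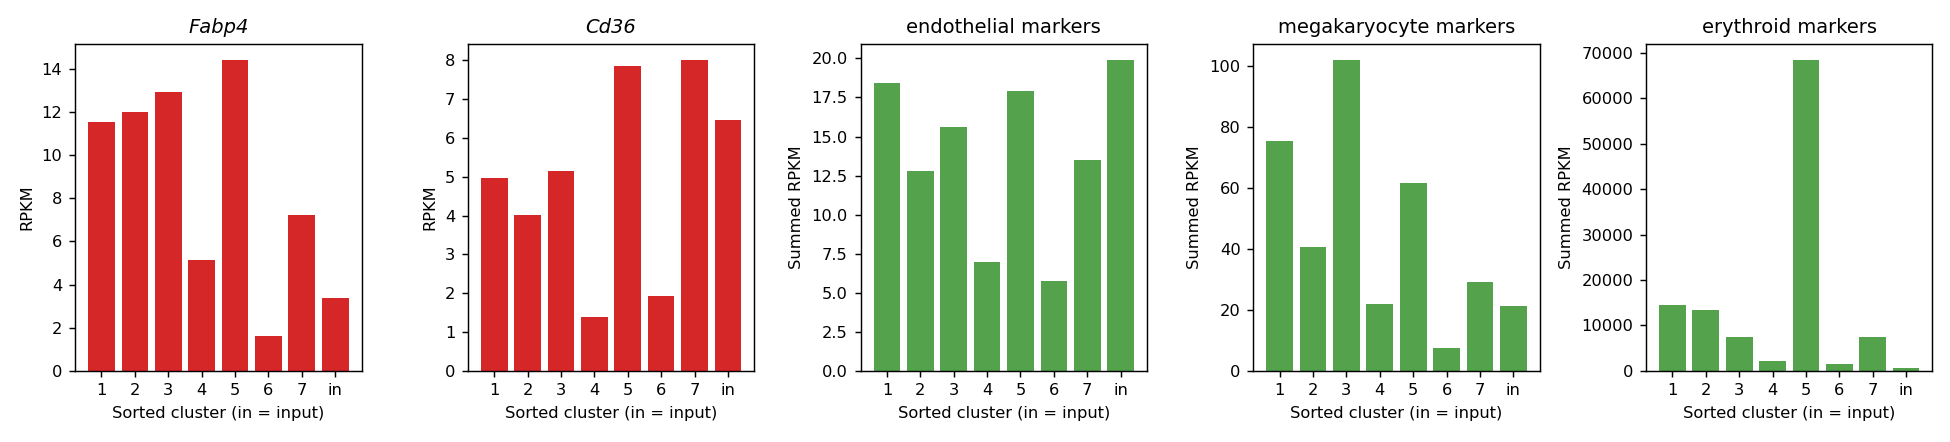
RPKM of Fabp4 and Cd36 (red) and summed RPKM of the endothelial, megakaryocyte and erythroid marker lists (green) in the 7 sorted libraries and the input (in), each panel with its own y axis from 0. Clusters 4 and 6 are the lowest sorted libraries in all 5 panels.

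Plin1 (ENSMUSG00000030546, chr7:79720218-79732903) encodes perilipin 1, which coats the lipid droplets of mature adipocytes. It had 14, 2, 5, 17, 2, 0 and 7 counts in clusters 1 to 7, at most 0.124 RPKM. No neighbours in the order differed beyond counting error, but cluster 4 exceeded cluster 2 by 6.62-fold (1.57 to 59.1), and its interval against cluster 6 lay above 4.01. Other genes typical of mature adipocytes were also low. Lep, the leptin gene, reached 0.163 RPKM in cluster 5 and was at 0 in 4 sorted libraries, Cidec, a droplet fusion protein, reached 0.636 RPKM in cluster 3 and Lipe, the hormone-sensitive lipase, lay between 0.677 and 1.12 RPKM. Retn, the resistin gene, reached 1.53 RPKM in cluster 5. Cfd, the serine protease adipsin, was higher, with 31.3 RPKM in cluster 3 and at most 3.29 in the other 6. Cfd and Adipoq were thus highest in different populations.

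Pairs of the 10 genes were compared across the 7 sorted libraries as a description. Pparg had r = 0.920 with Lpl and 0.843 with Adipoq, and Lpl had r = 0.858 with Apoe and 0.761 with Adipoq. Adipoq had r = 0.209 with Fabp4 and -0.146 with Cd36, while Fabp4 and Cd36 had r = 0.696 with each other. Genes of the marrow niche were compared with the same members. With Cxcl12, the chemokine that retains haematopoietic stem cells, r was 0.924 for Adipoq, 0.953 for Pparg, 0.938 for Lpl and 0.821 for Apoe. With Kitl, which encodes stem cell factor, it was 0.750, 0.963, 0.834 and 0.483 for the same 4 genes, and with Lepr, the leptin receptor, 0.703, 0.608, 0.741 and 0.726. With Icam1 it was 0.727, 0.834, 0.943 and 0.891. Icam1 encodes CD54, by which clusters 3, 4, 5 and 7 were gated.

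The genes most like each member were sought among 7462 genes with a symbol, at least 50 counts and RPKM above 2 in at least 1 sorted library, and a range above 2-fold. The nearest gene had r of 0.940 or more for every member. Such r are the top of a ranking of 7462 genes over 7 points, and are given as a description. What a near gene says of the cells behind a member was not tested. The 5 genes most like Adipoq across the 7 libraries were Gm12279 (r = 0.983), March3 (0.960), Gm17056 (0.939), Dedd2 (0.925) and Cxcl12 (0.924), of which only Cxcl12 exceeded Adipoq in RPKM in cluster 4, at 139. Kcne4 (0.995), Ism1 (0.992) and Inmt (0.991) were closest to Lpl, and Pappa2 (0.969), Gfra1 (0.967) and Rrad (0.959) to Apoe. Scpep1 (0.990), Adcy7 (0.989) and Stat5b (0.984) were closest to Cebpb.

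The genes nearest to Fabp4 were Gpx1 (0.969), which encodes a glutathione peroxidase, Egfl7 (0.968), an endothelial gene, and Pf4 (0.963), the platelet factor. For Cd36 they were Apol11b (0.940), Alas2 (0.915), the erythroid enzyme of haem synthesis, and Pecam1 (0.913), which encodes the CD31 that the sort removed. Pparg was nearest to Sult5a1 (0.988), Bicc1 (0.980) and Nmi (0.980), Cebpa to Gm10941 (0.948), BC100530 (0.935) and Kcnk2 (0.925), and Zfp423 to Ehd1 (0.989), Sulf2 (0.988) and Has1 (0.985). Plin1 was nearest to Pcdh19 (0.982), Rgs7bp (0.975) and Calml4 (0.968), on its few counts.

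Against the input, Cebpb stood apart. It had 9.50 RPKM in the input and was between 22.7 (20.1 to 25.7) times higher, in cluster 5, and 68.3 (60.8 to 76.9) times higher, in cluster 4. The ratios rest on 288 counts of Cebpb in the input, and they were larger with TMM scaling, under which Cebpb had 5.95 RPKM in the input, 277 in cluster 2, 291 in cluster 5 and 665 in cluster 4. It was the only member more than 2-fold above the input in RPKM + 1 in all 7 sorted libraries, as were 0.472% of the 19088 genes with RPKM above 2 in at least 1 of the 8 libraries. Pparg, at 4.70 RPKM in the input, was the only member more than 2-fold below it in all 7, as were 31.2% of those genes. With TMM scaling this no longer held, since Pparg had 2.94 RPKM in the input against 1.87 in cluster 4, 1.71 in cluster 5 and 1.38 in cluster 1.

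The other members lay on both sides of the input. Adipoq had 6.50 RPKM, Apoe 105, Lpl 12.6, Cd36 6.47, Fabp4 3.37, Zfp423 2.87, Cebpa 1.24 and Plin1 0.448 in the input. Cluster 4 exceeded it by 4.55-fold (3.89 to 5.35) for Adipoq, by 4.91-fold (4.76 to 5.07) for Apoe and by 2.51-fold (2.40 to 2.62) for Lpl, and was lower for Cd36, at 0.216 (0.179 to 0.258) of its level. Lep and Ucp1, the latter known from brown fat, had 5.91 and 5.09 RPKM in the input and were near 0 in the sorted libraries. The input levels of Lep and Ucp1 rest on 400 and 168 counts. Separately, low counts in the input fell on genes that marrow is not known to use. There, 3 or more reads were counted on 67.8% of 858 olfactory receptor genes. In the sorted libraries this share was 28.0% in cluster 5, 16.6% in cluster 3 and between 2.10% and 7.93% in the others. TMM scaling lowered the input by 0.68 on the log2 scale.

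A wider list of 96 genes of adipogenesis, grouped by role, gave the setting. Of these, 70 passed RPKM 2 in a sorted library, 66 passed the fold between highest and lowest (70.6% of all genes), and 4 (Cfd, Mgll, Cdh13 and Dpp4) were more than 2-fold above the next library, a share near the background of 5.4%. Cluster 4 was highest for 11 of the 70 (8.95% of all genes), and 17 were more than 2-fold above (4.47%) and 2 more than 2-fold below (1.47%) the median of the other populations there. The median of the 70 in cluster 4 was 0.32 above the other populations on the log2 scale, against 0.68 for the 8 members and 0.04 for all genes. Secreted proteins and progenitor surface markers had the highest medians, at 1.50 and 1.21, and the thermogenic genes the lowest, at -0.10.

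**Figure D4:**
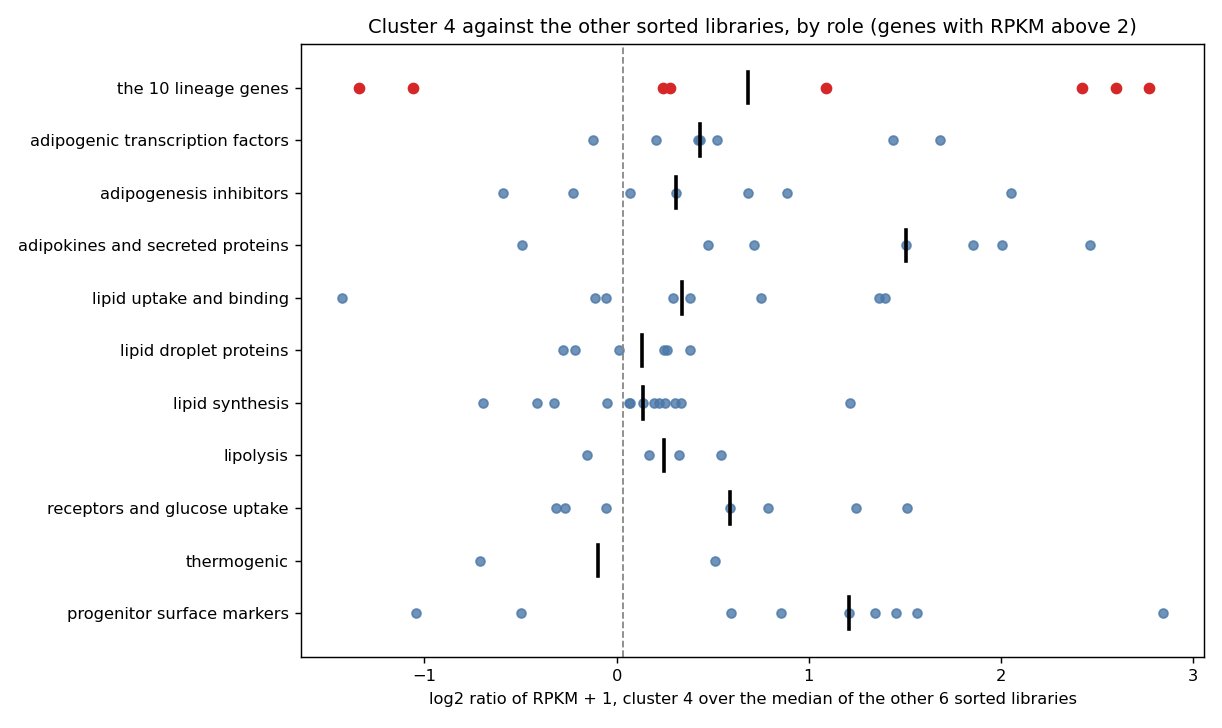
Log2 ratio of RPKM + 1 in cluster 4 over the median of the other 6 sorted libraries (x axis) for the 8 members (red) and the 70 wider list genes (blue) with RPKM above 2, by role (rows); black bars are group medians and the dashed line is the median of all genes. Secreted proteins and progenitor surface markers lie farthest to the right, and the lineage genes spread to both sides.

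Of 12 further adipogenic transcription factors, 7 passed the level and only Cebpd was highest in cluster 4. Cebpd, the early partner of Cebpb, had 197 RPKM there, 142 in cluster 7 and 134 in cluster 1, and between 36.9 and 64.8 in the others. Klf5, another early factor, was high in the same 3 libraries, with 22.5 RPKM in cluster 7, 21.1 in cluster 4 and 16.9 in cluster 1. Ebf2, which marks committed preadipocytes, was instead highest in cluster 1, at 14.5 RPKM, and had 6.50 in cluster 4 and 0.0365 in cluster 6. In all, 5 of these 7 factors were highest in cluster 1, the highest library of 21.3% of all genes that passed the level, and 3 of them with TMM scaling.

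Of 8 inhibitors of adipogenesis, 7 passed the level and Dlk1 (preadipocyte factor 1) was highest in cluster 4. Dlk1 had 8.82 RPKM in cluster 4, 7.64 in cluster 5, 4.24 in cluster 7 and at most 1.39 in the others, but with TMM scaling it was highest in cluster 5, at 10.3 against 9.04 in cluster 4. Klf2 was highest in cluster 1, at 275 RPKM. Sox9, the regulator of cartilage, was highest in cluster 6, at 164 RPKM, with 159 in cluster 2 and 97.1 in cluster 4.

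Among 10 adipokines and other secreted proteins, 7 passed the level. Of these, 4 were more than 2-fold above the median of the other populations in cluster 4, against 4.47% of all genes. Apod, a lipocalin that carries small lipids, had 357 RPKM in cluster 4 and 364 in cluster 7 and fell to 2.87 in cluster 6. Lcn2, a lipocalin of neutrophils and adipocytes, was highest in cluster 7, at 446 RPKM, and had 284 RPKM in cluster 4. The 10 neutrophil markers also had their highest sum in cluster 7 among the sorted libraries, at 30647 RPKM against 27296 in cluster 5. With TMM scaling (shifts of 0.44 for cluster 5 and -0.05 for cluster 7 on the log2 scale), the sum in cluster 5 was the higher.

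Of the genes of lipid storage, few were highest in cluster 4, at shares too small in number to be told from the background of 8.95%. Of 12 lipid droplet genes 6 passed the level and none was highest in cluster 4. Cav1 and Cavin1, which form caveolae, were highest in cluster 1, at 201 and 143 RPKM, and lowest in cluster 6, although with TMM scaling Cav1 was highest in cluster 3. Of 15 lipid synthesis genes 13 passed, and only Lpin1 was highest in cluster 4, or none with TMM scaling. Scd2, a desaturase, had 83.4 RPKM in cluster 2 and 76.4 in cluster 6 against 19.3 in cluster 4, and Dgat1, which completes triglyceride synthesis, had 134 in cluster 7 and 70.6 in cluster 4. Of 7 lipolysis genes 4 passed and none was highest in cluster 4, or 1 with TMM scaling. G0s2, an inhibitor of lipolysis, had 380.4 RPKM in cluster 7, and Mgll, the monoglyceride lipase, had 25.6 RPKM in cluster 3.

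Lipid uptake was divided. Of 9 genes 8 passed, and Lrp1, a receptor of Apoe, was highest in cluster 4 together with Apoe itself, at 74.3 RPKM against 47.0 in cluster 7. Gpihbp1, which anchors lipoprotein lipase on capillary endothelium, had 0.0842 RPKM in cluster 4, where Lpl was highest, 0.470 in cluster 6 and between 1.25 and 2.65 in the others.

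Of 10 receptors and genes of glucose uptake 7 passed and 3 were highest in cluster 4 (2 with TMM scaling), against 8.95% of all genes. Irs2, an adaptor of the insulin receptor, was among these 3, at 68.4 RPKM. Adipor1, a receptor of adiponectin, varied little, between 42.8 RPKM in cluster 4 and 58.4 in cluster 2, with 43.7 in cluster 6. Cdh13, which binds adiponectin at the cell surface, was highest in cluster 3, at 52.3 RPKM, with 10.4 in cluster 4. Of 4 thermogenic genes 2 passed, Dio2, a deiodinase, with at most 6.62 RPKM, and Cox7a1, a subunit of cytochrome oxidase, with at most 5.24.

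All 9 progenitor surface markers passed. Icam1 was highest in cluster 4, at 237 RPKM, and had 150 in cluster 7, which was gated as CD54-, and 44.5 in cluster 5, which was gated as CD54+. Ly6a, which encodes Sca-1, was highest in cluster 3, at 931 RPKM, had 431 in cluster 4 and fell to 4.98 in cluster 6, the Sca-1- gate. Cd24a, which encodes CD24, went against the gates in part, with 49.9 RPKM in cluster 3 (gated as CD24+ but the lowest library), 126 in cluster 2 (gated as CD24-) and 137 in cluster 6 (CD24+). The levels of Ly6a, Cd24a and Icam1 were used by the gates through their proteins and are therefore not independent of the sort.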

How the data were processed

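The authors sequenced polyadenylated RNA of 7 sorted populations and the input, trimmed low-quality bases, aligned reads by TopHat2 to mm9 and quantified RPKM, and the submitters' processing notes also name Partek 2.2. They deposited raw counts per Ensembl gene with exon positions and lengths, with GRCm38 coordinates. How reads were counted, with or without strand and where genes overlap, is not given in the sources used here. The labels describe RNA from crushed marrow, whereas the methods describe sorted cells.

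From the deposited counts, each value was divided by exon length and by its library total on genes to give RPKM, used as log2(RPKM + 1). Symbols were given to 32464 of 49315 genes by the tables and a name table, with 4 older symbols matched. Intervals are exact Poisson for a level and exact binomial for a ratio, at 95%. edgeR (TMM) and DESeq2 gave scaling factors only, over all 8 libraries. With 1 library per population no test was made. A gene passed when any sorted library had RPKM above 2, and a difference counted above 2-fold. Beyond the 10 members, genes named are those of each role with the 2 highest levels and the widest range, the nearest 5 (Adipoq) or 3 genes by Pearson r, and the leading gene of each marker list. Other genes (Lpin1, Cd24a, Csf1r, Gpihbp1, Dpp4, Ucp1 and single markers) were named after their values were seen. Some genes that these rules select are not reported here. The members and lists were chosen with earlier results of these data known. The call of genes more than 2-fold above the next library was tested on simulated counts, with a rise placed in cluster 4. The other calculations were not tested in this way. Software comprised R 4.3.3 with DESeq2 1.42.0 and edgeR 4.0.16, and Python 3.11.15 with scipy 1.17.1, pandas 2.3.3, numpy 2.4.6 and matplotlib 3.10.9. Alternatives comprised the scaling (TMM, DESeq2 size factors, totals without 3 loci or without mitochondrial and haemoglobin genes, TPM), a pseudocount of 0.1, other RPKM and fold thresholds and leaving out a library.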

Additional observations from a re-analysis of the deposited data

How the results depend on the processing

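With 1 library per population the values rest on single libraries, and no replicate error limits them. Of 162 values recomputed under the alternatives, 122 kept within the spread set by counting error or within 1.5 times for counts, and 40 moved. A reversal of sign was recorded only for log2 ratios of cluster 4 beyond 1 in either direction in the main setting. These were the ratios of Adipoq, Apoe, Lpl, Cebpb, Fabp4 and Cd36, and none of them reversed. Counts could not reverse by this rule. A fold threshold of 4 left 4 of the 10 genes over the range (Adipoq, Lpl, Fabp4 and Apoe) in place of 7 (background 15.7%), 0 above the next library in place of 2 (background 0.542%), and 34 wider list genes in place of 66. Without an RPKM filter, 17 of all 96 wider list genes were highest in cluster 4 in place of 11 of 70 (background 7.44% in place of 8.95%). With the total taken without Rn18s-rs5, Lars2 and mmu-mir-689-2, Pparg was no longer highest in cluster 4, Zfp423 lost the range and Cebpa gained it, whereas TMM and DESeq2 factors added Plin1 to the genes highest there and Cebpa to the range. Without cluster 2, 6 of the 10 genes passed the range, as Zfp423 did not. The background share past the fold moved from 70.6% to 56.8% with TMM and to 99.7% with TPM. Over the alternatives, the log2 ratio of cluster 4 to the other populations lay between 2.72 and 3.43 for Adipoq, 2.43 and 3.21 for Apoe, 2.03 and 3.87 for Lpl, 0.96 and 1.17 for Cebpb, 0.34 and 1.34 for Pparg, -1.18 and -0.40 for Fabp4 and -1.79 and -1.13 for Cd36, so that Cebpb, Pparg and Fabp4 passed 2-fold only under some of them. Adipoq and Apoe were the 2 members more than 2-fold above the next library under each alternative of scaling, pseudocount and RPKM filter. No paired analysis was possible because no group had a second library. Differences within the counting intervals, among them those of Plin1 between neighbours in the order, were not detectable at this depth.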
